A study of Mus musculus with 24 samples.

Results

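Sebaceous gland lipid genes were followed here as a set of 8: Scd1, Scd3, Elovl3, Far2, Awat2, Soat1, Cidea and Mc5r. They were chosen by symbol from the 51912 genes of the deposited table, and all 8 were among the 17287 genes that passed the filter on low counts. The RNA came from the whole ear of C57BL/6 mice, all of which had received tamoxifen by intraperitoneal injection on 3 consecutive days. The groups were CARD14E138A ears at day 5, wild-type (Wt) ears at day 5, CARD14E138A ears at 1 month and Wt ears at 1 month, each with 6 samples and with time counted from the first injection. In the CARD14E138A mice (called mutant below) tamoxifen acts on CreERT2, which allows the mutant protein to be made from the mouse's own Card14 locus, and the mutation was described as keeping NF-κB signalling on. No source used here gives the promoter that drives CreERT2, the sex or age of the mice, or whether Wt mice carry CreERT2. Whether each sample is 1 mouse is not said in the labels. P-values below therefore measure spread among the deposited samples, part of which may be technical.

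Sebaceous glands open into the upper hair follicle. Their cells, the sebocytes, fill with lipid droplets, burst and release sebum, which coats hair and skin. Mouse sebum is rich in wax esters, cholesterol esters and triglycerides, and the enzymes that desaturate, elongate, reduce and esterify fatty acids are produced there in large amounts. Scd1 and Scd3 encode stearoyl-CoA desaturases that put a double bond into saturated fatty acids, and mice without Scd1 have atrophied sebaceous glands. Elovl3 encodes an elongase of very long-chain fatty acids, Far2 a reductase that turns fatty acyl-CoA into fatty alcohol, and Awat2 an acyltransferase that joins fatty alcohol to fatty acid as a wax ester. Soat1 encodes the enzyme that esterifies cholesterol, Cidea a lipid droplet protein, and Mc5r the melanocortin 5 receptor, whose loss in mice reduces sebum. Several of these genes are active elsewhere too: Scd1 and Cidea in adipocytes, Elovl3 and Cidea in brown fat, and Soat1 in macrophages.

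The promoter windows that RefSeq gives for GRCm38.p6 (250 bases before to 50 bases after a transcription start) were searched because most of the genes moved in 1 direction in mutant ears. Windows were found for 4 of the 8 genes, Far2, Awat2, Scd3 and Soat1, with a second start for Awat2. The windows below belong to the fatty alcohol and wax ester enzymes, which were lower in mutant ears at both times, and to Scd3, which was not called at day 5 and was lower at 1 month. Letters in capitals are matches to the motifs searched.
Far2, chr6:148047166-148047465, plus strand: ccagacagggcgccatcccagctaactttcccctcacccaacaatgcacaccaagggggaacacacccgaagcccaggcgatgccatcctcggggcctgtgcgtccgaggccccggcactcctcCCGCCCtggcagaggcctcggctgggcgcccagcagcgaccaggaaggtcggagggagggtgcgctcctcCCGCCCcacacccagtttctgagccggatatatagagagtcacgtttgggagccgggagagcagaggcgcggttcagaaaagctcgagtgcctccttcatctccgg
Awat2, chrX:100442668-100442967, minus strand: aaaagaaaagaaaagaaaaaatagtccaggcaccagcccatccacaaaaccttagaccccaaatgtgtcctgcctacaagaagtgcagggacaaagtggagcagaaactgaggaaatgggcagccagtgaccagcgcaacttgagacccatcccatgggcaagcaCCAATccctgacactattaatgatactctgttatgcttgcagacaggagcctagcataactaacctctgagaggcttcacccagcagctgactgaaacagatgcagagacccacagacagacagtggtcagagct
Scd3, chr19:44203038-44203337, plus strand: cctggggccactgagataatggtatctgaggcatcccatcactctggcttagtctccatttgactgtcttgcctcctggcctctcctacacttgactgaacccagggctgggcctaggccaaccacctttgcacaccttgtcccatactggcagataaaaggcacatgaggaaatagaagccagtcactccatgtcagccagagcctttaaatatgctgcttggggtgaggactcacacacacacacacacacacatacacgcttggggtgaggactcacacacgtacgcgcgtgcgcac
The motifs, read on both strands, were the nuclear receptor core AGGTCA, the CCAAT box CCAAT, the TATA box TATAAA, the GC box GGGCGG and the E-box CACGTG; no 2 of the matches overlapped. The Far2 window held the GC box at positions -126 and -56 from the start, on the minus strand of the window. The printed Awat2 window held CCAAT at -85, and the Scd3 window matched none of the 5 motifs. The Soat1 window, not printed, held CCAAT at -30 and a GC box at position 30, and the second Awat2 window held CCAAT at -121 and a GC box at -70. These letters are common: of 32817 mouse promoter windows of the same length, 35.6% held the GC box and 37.4% held CCAAT. The nuclear receptor core occurred in 16.3% of windows, TATAAA in 13.6% and CACGTG in 7.15%.

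Total counts per library ran from 16803680 to 18852963 in mutant and from 15661515 to 16998900 in Wt ears at day 5. At 1 month they ran from 20608274 to 23022149 in mutant and from 19255028 to 23904976 in Wt ears, and the lowest count of any of the 8 genes in any library was 12, for Mc5r. Levels are given as CPM, counts scaled to a common library size with the TMM factors of edgeR. Card14 itself was detected throughout. It spanned 35.1 to 65.4 CPM in mutant and 34.6 to 54.2 CPM in Wt libraries of day 5, and 9.93 to 25.3 CPM in mutant and 32.9 to 49.9 CPM in Wt libraries of 1 month; this level does not show which allele was read. At 1 month 4 libraries were low in 4 Y-linked genes: mutant replicates 1, 2 and 6 and Wt replicate 2 had a summed level of 17.9 to 67.6 CPM. The cutoff was 67.7 CPM, the median of 203 CPM over the 24 libraries divided by 3. This cutoff does not mark a clear gap. Mutant replicate 2 lay just under it, and Wt replicates 4, 5 and 3 of 1 month came next at 101.9, 109.5 and 143.5 CPM. Xist did not exceed 0.174 CPM in any library. For each library, the deviation of a gene's log2 CPM from its mean over the 24 libraries was also correlated with its GC content. In 3 of these libraries (mutant replicates 1 and 6, Wt replicate 2) Pearson's r was 0.44, 0.54 and 0.51 across 17236 genes, which are not independent. This measure is relative to the other libraries. In the remaining libraries of 1 month it ran from -0.35 (mutant replicate 4) to 0.29 (Wt replicate 5). Fold changes of the 8 genes at 1 month are therefore also given without the 4 libraries. The keratinocyte genes Krt5, Krt14, Krt1 and Krt10 had summed levels from 14350 to 46540 CPM over all libraries, and all 9 sebaceous gland markers checked passed the filter.

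Per length of transcript the 8 genes differed widely. Scd1 was the most abundant in each group, at 569 ± 119 CPM per kilobase of exon in mutant and 1401 ± 181 in Wt ears at day 5, and at 458 ± 108 in mutant and 1204 ± 184 in Wt ears at 1 month (SD, n = 6 each). In Wt ears at day 5 Elovl3 (87.3 ± 18.5), Far2 (72.1 ± 8.88) and Cidea (70.7 ± 8.63 CPM per kilobase) followed, and their means differed by less than the SD of Elovl3. Soat1 came next at 25.2 ± 4.76 CPM per kilobase, and Awat2 (1.76 ± 0.349), Mc5r (1.57 ± 0.233) and Scd3 (1.12 ± 0.266) formed the low end. In Wt ears at 1 month Scd3 stood at 5.96 ± 2.61, Awat2 at 3.18 ± 0.702 and Mc5r at 1.02 ± 0.437 CPM per kilobase. Exon length was the union of annotated exons, since effective transcript lengths were not used here.

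The first comparison addressed the immediate effect of the mutant protein. At day 5, 6 of the 8 genes fell in mutant ears (Scd1, Awat2, Mc5r, Far2, Cidea and Soat1) and none rose (quasi-likelihood test of edgeR, p adjusted by Benjamini-Hochberg over the 17287 genes, threshold 0.05). Of all tested genes 40.9% were called at day 5, 20.2% lower and 20.7% higher. The median log2 fold change was -0.84 over the 8 genes and -0.02 over all tested genes. In 5 of the 8 the mutant libraries lay wholly below the Wt libraries, as they did in 16.4% of all tested genes; 17.9% lay wholly above. In bulk tissue, fewer sebocytes and less of these RNAs per sebocyte cannot be told apart. The 8 adipocyte markers checked fell at both times as well, with values given among the other cell markers, and their part in the falls was not tested.

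**Figure D1:**
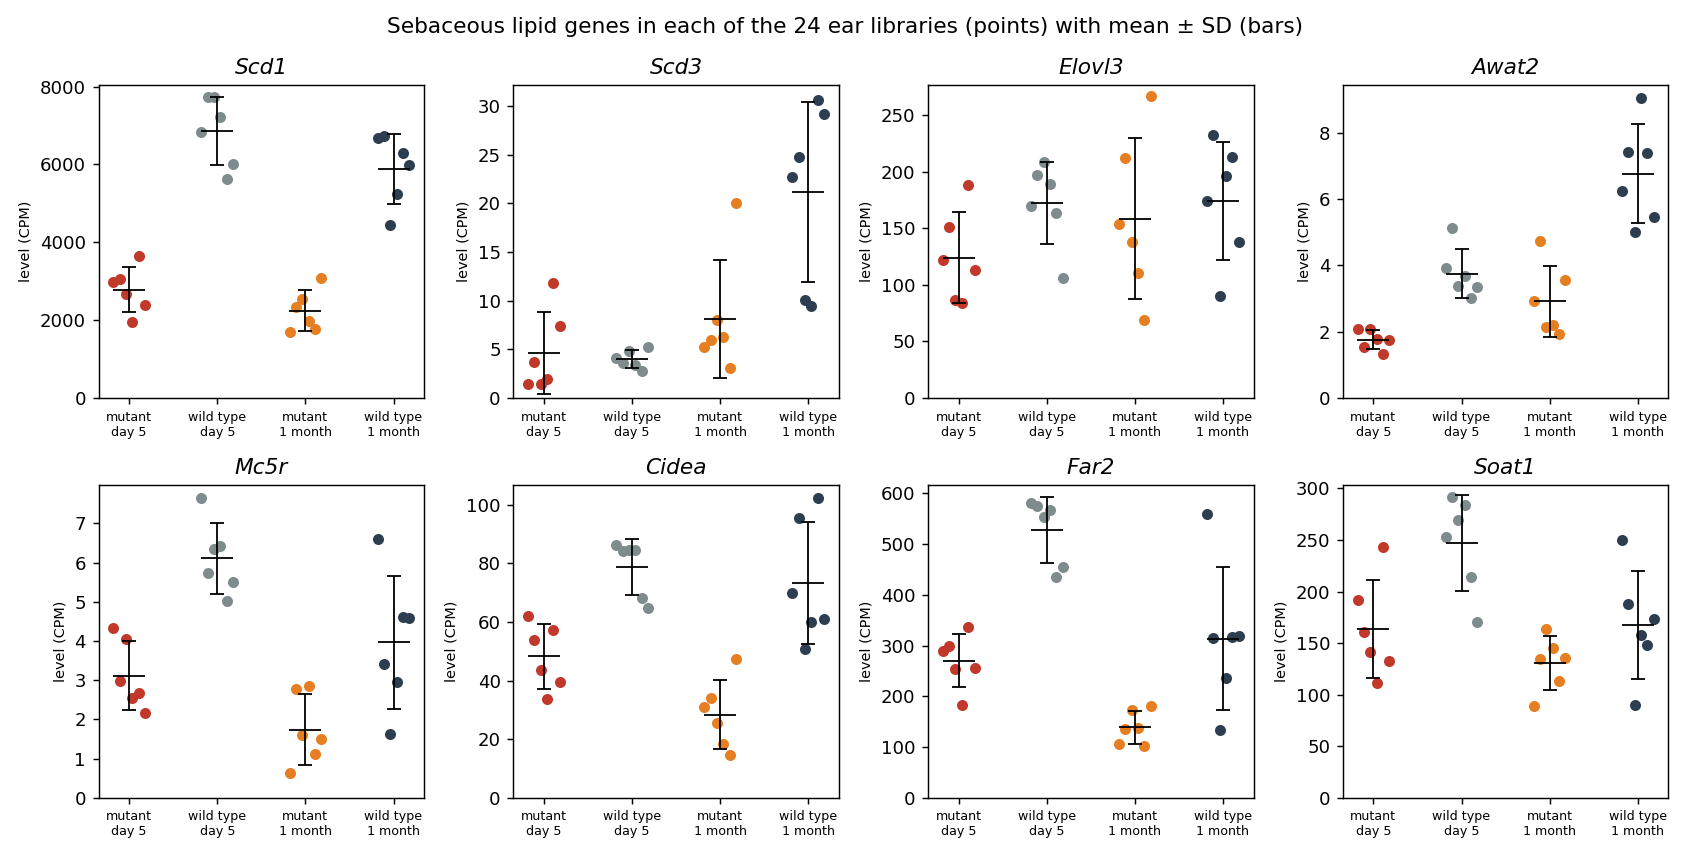
Level of each of the 8 genes (CPM, linear axis from 0) in the 24 ear libraries, with 1 point per library and a bar for mean ± SD of the 6 libraries of a group. The mutant libraries of Scd1 lie between 1705 and 3642 CPM and the Wt libraries between 4432 and 7736 CPM.

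Among the desaturases at day 5, Scd1 (ENSMUSG00000037071, GRCm38 chromosome 19, 44394455 to 44407879, minus strand) was lowest at 1962, had a median of 2835 and was highest at 3642 CPM in mutant ears, against 5626, 7027 and 7736 CPM in Wt ears. Each mutant library was below each Wt library. The fall was 2.46-fold, or -1.30 ± 0.17 as log2 fold change (SE; edgeR adjusted p = 1.55e-06). Scd3 (ENSMUSG00000025202, GRCm38 chromosome 19, 44203269 to 44244016, plus strand) lies near Scd1 on the same chromosome and behaved differently at this time. It ran from 1.42 through a median of 2.83 to 11.8 CPM in mutant ears, against 2.74, 3.84 and 5.28 CPM in Wt ears. The mutant libraries surrounded the Wt libraries, with replicates 5 and 6 above all of them and replicates 1, 3 and 4 below. Its log2 fold change of 0.21 ± 0.49 did not pass the test (edgeR adjusted p = 0.775) and turned to -0.33 without mutant replicate 5.

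The elongase gene Elovl3 (ENSMUSG00000038754, GRCm38 chromosome 19, 46131897 to 46135694, plus strand) had a lowest, median and highest level of 84.4, 117.8 and 188 CPM in mutant ears and 106, 179 and 208.5 CPM in Wt ears at day 5. The groups overlapped, and the log2 fold change of -0.47 ± 0.27 did not pass the test (edgeR adjusted p = 0.175). Exons of Elovl3 overlap those of Pitx3 on the opposite strand, and no source used here says whether reads were counted by strand.

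Both enzymes of the wax ester route were lower in mutant ears at day 5. Far2 (ENSMUSG00000030303, GRCm38 chromosome 6, 148047259 to 148182758, plus strand) had a lowest, median and highest level of 183.7, 272.8 and 336.7 CPM in mutant ears, against 434.5, 559.7 and 580.6 CPM in Wt ears. The groups did not overlap, and the log2 fold change was -0.97 ± 0.23, a 1.95-fold fall (edgeR adjusted p = 0.00149). Awat2 (ENSMUSG00000031220, GRCm38 chromosome X, 100402221 to 100442717, minus strand) was read at a low level, 1.33 to 2.1 CPM with a median of 1.76 in mutant ears, against 3 to 5.12 CPM with a median of 3.53 in Wt ears. Its libraries did not overlap either, and it fell 2.12-fold (log2 fold change -1.08 ± 0.21, edgeR adjusted p = 0.000284). Of the 75-base windows of the Far2 transcripts, 9.69% also occur in those of Ergic2 or Far2os2, genes that overlap it on the opposite strand.

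The cholesterol esterifying gene Soat1 (ENSMUSG00000026600, GRCm38 chromosome 1, 156424525 to 156474331, minus strand) fell least of the 6 that were called at day 5. It had a lowest, median and highest level of 111, 151 and 243 CPM in mutant ears and 170, 261 and 291 CPM in Wt ears. Mutant replicates 1 and 5 lay above the lowest Wt library, so the groups overlapped. The fall was 1.51-fold, or -0.59 ± 0.21 as log2 fold change (edgeR adjusted p = 0.0246). The call was lost when mutant replicate 4 or 6 or Wt replicate 2 or 4 of day 5 was left out (edgeR adjusted p = 0.0650, 0.0589, 0.0554 and 0.0519).

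The droplet gene Cidea (ENSMUSG00000024526, GRCm38 chromosome 18, 67343604 to 67367785, plus strand) had a lowest, median and highest level of 33.7, 48.7 and 62.1 CPM in mutant ears, against 64.7, 84.3 and 86.4 CPM in Wt ears at day 5. No mutant library reached a Wt library, although the gap between the closest was small, and the gene fell 1.63-fold (log2 fold change -0.70 ± 0.23, edgeR adjusted p = 0.0150). The receptor gene Mc5r (ENSMUSG00000007480, GRCm38 chromosome 18, 68337596 to 68342446, plus strand) ran from 2.17 through a median of 2.82 to 4.33 CPM in mutant ears, against 5.03, 6.04 and 7.64 CPM in Wt ears. Again the groups stood apart, with a 1.96-fold fall (log2 fold change -0.97 ± 0.30, edgeR adjusted p = 0.0129).

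The same genotypes were compared at 1 month for the lasting effect. Once more 6 of the 8 genes fell in mutant ears and none rose, but the set was not the same: Scd3 was now among those that fell and Soat1 was not called. Of all tested genes 47.1% were called at 1 month, 21.5% lower and 25.5% higher. The median log2 fold change was -1.20 over the 8 genes and 0.05 over all tested genes. Mutant and Wt libraries did not overlap in 3 of the 8 (Scd1, Awat2 and Cidea), which 9.05% of all tested genes showed in the lower and 12.2% in the higher direction. Without the 4 libraries low in Y-linked genes, the same 6 genes passed the test. The log2 fold change then was -1.84 ± 0.23 for Cidea, -1.83 ± 0.58 for Scd3, -1.68 ± 0.22 for Awat2, -1.47 ± 0.19 for Scd1, -1.20 ± 0.30 for Far2 and -1.16 ± 0.35 for Mc5r. It was -0.64 ± 0.29 for Elovl3, which still missed the threshold (edgeR adjusted p = 0.0687), and -0.24 ± 0.26 for Soat1.

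Scd1 had a lowest, median and highest level of 1705, 2155 and 3089 CPM in mutant ears at 1 month, against 4432, 6132 and 6730 CPM in Wt ears. All mutant libraries were below all Wt libraries, and the fall was 2.63-fold (log2 fold change -1.40 ± 0.17, edgeR adjusted p = 3.35e-07). Scd3 ran from 3.09 through a median of 6.14 to 20.04 CPM in mutant ears and from 9.49 through 23.8 to 30.7 CPM in Wt ears. A single mutant library, replicate 6, lay within the Wt range, and Wt replicates 3 and 4 (10.1 and 9.49 CPM) stood below the other Wt libraries. Scd3 fell 2.61-fold (log2 fold change -1.38 ± 0.47, edgeR adjusted p = 0.0188), and without mutant replicate 6 the log2 fold change was -1.92. Its transcripts share 3.2% of their 75-base windows with other genes, Scd1 among them. The part of such shared reads in this fall was not tested.

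Awat2 had a lowest, median and highest level of 1.94, 2.56 and 4.73 CPM in mutant ears at 1 month, against 5, 6.82 and 9.06 CPM in Wt ears. The groups did not overlap, and the fall was 2.33-fold (log2 fold change -1.22 ± 0.21, edgeR adjusted p = 3.01e-05). Far2 ran from 101.8 through 136.6 to 180.1 CPM in mutant ears and from 133 through 316 to 559.6 CPM in Wt ears. Wt replicate 3, the lowest, lay inside the mutant range, and replicate 1 was far above the other Wt libraries. Far2 fell 2.25-fold (log2 fold change -1.17 ± 0.23, edgeR adjusted p = 0.000169). The log2 fold change over all 13 alternative settings ranged from -1.26 to -0.76, past the threshold in each.

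Cidea stood at a lowest, median and highest level of 14.5, 28.1 and 47.2 CPM in mutant ears at 1 month, against 50.7, 65.5 and 102.4 CPM in Wt ears. No mutant library reached the Wt range, and the fall was 2.58-fold (log2 fold change -1.37 ± 0.23, edgeR adjusted p = 2.87e-05). Mc5r ran from 0.62 through 1.55 to 2.85 CPM in mutant ears and from 1.63 through 3.99 to 6.61 CPM in Wt ears. Of the 6 Wt libraries only replicate 3 lay within the mutant range, and Mc5r fell 2.27-fold (log2 fold change -1.18 ± 0.31, edgeR adjusted p = 0.00276).

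Elovl3 and Soat1 were not called at 1 month. The Elovl3 levels were 68.7, 146 and 267 CPM (lowest, median, highest) in mutant ears and 90.5, 185 and 233 CPM in Wt ears, so that mutant libraries lay both below and above the Wt range. Its log2 fold change was -0.14 ± 0.27 (edgeR adjusted p = 0.716). Soat1 had 89.4, 135 and 163.6 CPM in mutant ears and 89.7, 165.5 and 249.9 CPM in Wt ears, and its log2 fold change, -0.36 ± 0.21, was not called (edgeR adjusted p = 0.159). The lowest Soat1 library of Wt ears, replicate 3, was close to the lowest mutant library, and without it the log2 fold change was -0.49 and past the threshold (edgeR adjusted p = 0.0403). Wt replicate 3 of 1 month was the lowest Wt library in 7 of the 8 genes, all but Scd3. Likewise mutant replicate 5 was the lowest mutant library of 1 month in 5 of them, and mutant replicate 6 the highest in 5.

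**Figure D2:**
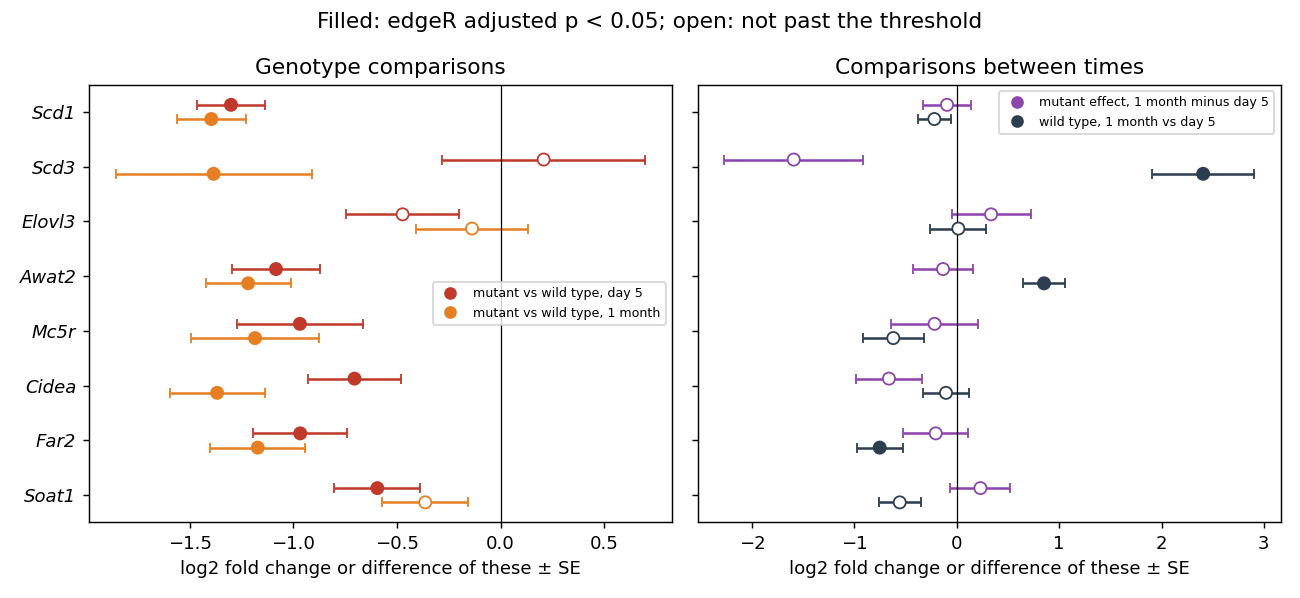
Log2 fold changes of the 8 genes with their SE (bars) from the edgeR fit of all 24 libraries, with filled points for adjusted p < 0.05. On the left, 6 genes are filled at each time and all filled points lie below 0; on the right, the change of the mutant effect has no filled point.

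Whether the effect of the mutation changed between the times was tested as an interaction, and none of the 8 genes passed (edgeR, against 8.77% of all tested genes called, 4.68% higher and 4.09% lower). Without adjustment the edgeR p was 0.028 for Scd3 and 0.0487 for Cidea, the only 2 of the 8 under 0.05. The share of all tested genes under 0.05 without adjustment was not counted, so the shares above cannot be set against these 2. DESeq2 likewise called none, and limma voom with sample quality weights called 1, Cidea (-0.80, limma adjusted p = 0.0125). Over all tested genes voom called 4037 higher and 4179 lower, against 809 and 707 in the edgeR fit of all 24 libraries. A single call among the 8 therefore does not stand out from the voom background. The largest estimate was that of Scd3, -1.59 ± 0.68 on the log2 scale (edgeR adjusted p = 0.172), where negative means a stronger fall at 1 month. It passed the threshold without the 4 libraries low in Y-linked genes (-2.06, edgeR adjusted p = 0.0441) and without mutant replicate 6 of 1 month alone (-2.13, edgeR adjusted p = 0.0357). Cidea had an estimate of -0.66 ± 0.32 (edgeR adjusted p = 0.242). Without the 4 libraries low in Y-linked genes it was -1.16 (edgeR adjusted p = 0.00656), and with the Y-linked level as a covariate -0.84 (edgeR adjusted p = 0.0191). These 2 settings also called more of all tested genes, 1697 higher and 2933 lower without the 4 libraries and 1788 and 1553 with the covariate. Without mutant replicate 6 of 1 month alone the counts were 664 higher and 838 lower. For Scd1, the most precise, the estimate was -0.09 ± 0.23, and for Awat2, Mc5r, Far2, Soat1 and Elovl3 the estimates ran from -0.22 to 0.34 with SE of 0.29 to 0.43.

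In Wt ears the genes differed in direction between the times. At 1 month against day 5, Scd3 and Awat2 rose, Far2 fell and the other 5 were not called (edgeR, with 9.09% of all tested genes called, 6.28% higher and 2.81% lower). These shares are 1086 higher and 486 lower genes with TMM scaling; with library totals alone they were 1518 and 346, and with RLE size factors 1457 and 374. Scd3 rose 5.30-fold, to 9.49 to 30.7 CPM at 1 month against 2.74 to 5.28 CPM at day 5, without overlap (log2 fold change 2.41 ± 0.50, edgeR adjusted p = 0.00385); 2.9% of all tested genes were higher and 2.16% lower without overlap. Scd1, which encodes the other desaturase, had a log2 fold change of -0.22 ± 0.16 in the same comparison (edgeR adjusted p = 0.389). Of the 75-base windows of Scd3 transcripts 3.2% also occur in other genes, among them Scd1, Scd2 and Scd4, and its expected counts were fractional in all 24 libraries as they are where RSEM divides reads between transcripts. The part of such reads in the Scd3 level was not tested.

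Awat2 rose 1.81-fold in Wt ears, to 5 to 9.06 CPM at 1 month against 3 to 5.12 CPM at day 5 (log2 fold change 0.85 ± 0.20, edgeR adjusted p = 0.0104). Only the lowest library of 1 month lay below the highest of day 5. Far2 fell 1.69-fold, to 133 to 559.6 CPM at 1 month against 434.5 to 580.6 CPM at day 5 (log2 fold change -0.75 ± 0.23, edgeR adjusted p = 0.0378). This call was weak: of 24 fits that each left out 1 library, 9 kept it, and the adjusted p reached 0.0903. It was lost without Wt replicates 1, 2, 3, 4 or 6 of day 5, Wt replicates 2, 3, 4, 5 or 6 of 1 month, mutant replicates 2, 3 or 4 of day 5, or mutant replicates 3 or 4 of 1 month. Time after tamoxifen and age of the mice cannot be told apart here. Library totals also differed between the times.

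The 8 genes did not all fall in step, and at 1 month only pairs with Elovl3 or Soat1 differed. Within each library the log2 ratio of every pair of the 8 was taken and compared between mutant and Wt ears by a two-sided exact permutation test, 28 pairs at 2 times with Benjamini-Hochberg adjustment over the 56 tests. These ratios were chosen after the levels had been seen, and the smallest p that 6 against 6 libraries allow is 0.00216. At day 5, 7 pairs passed. Scd1 was lower in mutant ears relative to Elovl3 (difference in log2 ratio -0.82, exact permutation p = 0.00216, adjusted 0.0121, n = 6 each), and also relative to Soat1 (-0.70), Cidea (-0.59) and Far2 (-0.34), each with the same p. Far2 was in turn lower relative to Soat1 (-0.36, adjusted exact p = 0.0121), and Elovl3 (0.48, adjusted exact p = 0.0373) and Cidea (0.25, adjusted exact p = 0.0220) were higher relative to Far2.

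At 1 month 7 pairs passed as well, and each of them held Elovl3 or Soat1. These were the 2 genes not called at that time, so the ratios largely restate those calls. No pair among the 6 genes called at 1 month passed. Scd1 was lower in mutant ears relative to Elovl3 (-1.21) and to Soat1 (-1.09), each with an adjusted exact permutation p of 0.0121. Elovl3 was higher relative to Cidea (1.22) and to Awat2 (1.03), and Far2 was lower relative to Soat1 (-0.75), with the same adjusted exact p. Scd3 relative to Elovl3 (-1.27, adjusted exact p = 0.0373) and Cidea relative to Soat1 (-1.10, adjusted exact p = 0.0433) completed the list. Without the 4 libraries low in Y-linked genes, which leaves 3 mutant and 5 Wt libraries, the difference was -0.83 for Scd1 relative to Elovl3 and -1.65 for Cidea relative to Soat1. The other 5 differences were -1.29 to 1.20 without those libraries and kept their direction.

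Across libraries the genes varied together to differing degrees once the mean of each group was removed. Over the 24 libraries Pearson's r of log2 CPM was highest for Elovl3 with Cidea (0.88) and for Far2 with Soat1 (0.87), and Scd1 reached 0.82 with Far2 and 0.80 with Soat1. Awat2 was only loosely tied to most of the others (0.08 with Soat1, 0.16 with Far2, -0.09 with Scd3) and reached 0.55 with Cidea and 0.52 with Elovl3. Within the groups, Awat2 with Elovl3 had r of -0.78 in mutant and 0.36 in Wt libraries of day 5, and 0.84 in both mutant and Wt libraries of 1 month. Awat2 with Cidea had -0.20 in mutant and 0.58 in Wt libraries of day 5, and 0.80 in mutant and 0.47 in Wt libraries of 1 month (n = 6 each), so the pooled values do not hold in mutant ears at day 5. The median over the 28 pairs was 0.55. These values describe libraries that share depth and tissue composition and carry no test.

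**Figure D3:**
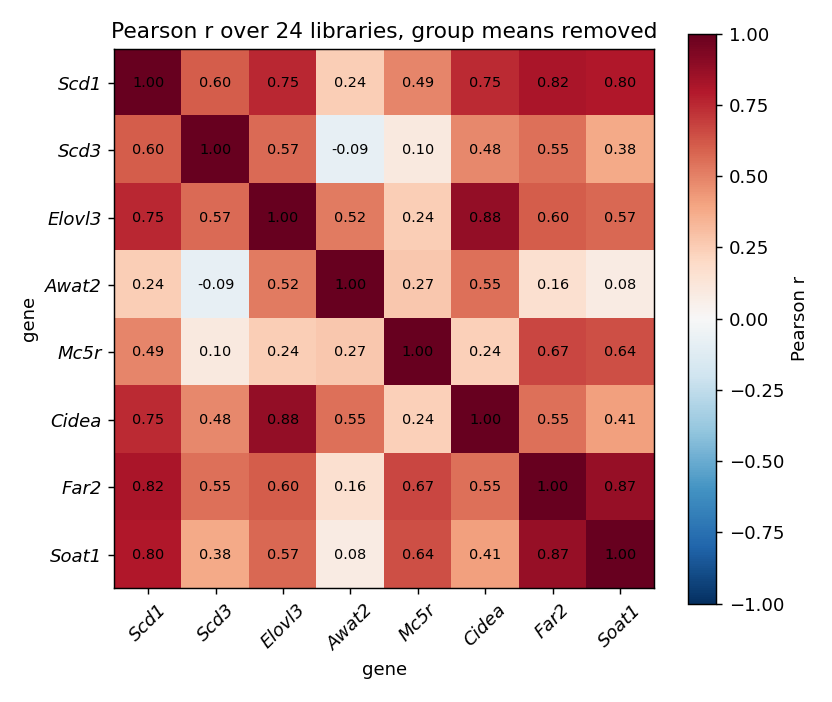
Pearson correlation of log2 CPM between each pair of the 8 genes over 24 libraries after the mean of each group was removed (colour and printed value, both axes list the genes). Elovl3 with Cidea and Far2 with Soat1 have the highest values, 0.88 and 0.87, and Awat2 with Scd3 the lowest, -0.09.

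Of all other tested genes, the 5 whose level followed the mean standardized level of the 8 most closely over the 24 libraries, with group means removed, were Cers4 (r = 0.96), Rdh11 (0.92), Hacd2 (0.91), Pnpla5 (0.91) and Endod1 (0.91). Cers4 encodes a ceramide synthase, Rdh11 a retinol dehydrogenase and Hacd2 a dehydratase of the fatty acid elongation cycle. Cers4 averaged 225.6 CPM in mutant and 423 CPM in Wt ears at day 5 (log2 fold change -0.91 ± 0.19, edgeR adjusted p = 0.000528), and 186 CPM in mutant and 320.1 CPM in Wt ears at 1 month (-0.78 ± 0.19, edgeR adjusted p = 0.00158). Hacd2, Rdh11 and Pnpla5 were also called lower at both times. Endod1 fell at day 5 (-0.36 ± 0.14) and was not called at 1 month (0.21 ± 0.14, edgeR adjusted p = 0.222).

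The close relatives of the 8 genes showed several patterns, with 17 of 22 listed relatives tested. At day 5, 8 were lower and 1 was higher in mutant ears, and at 1 month 6 were lower and 1 higher. For these and the lists that follow, the shares over all tested genes were 20.2% lower and 20.7% higher at day 5 and 21.5% lower and 25.5% higher at 1 month. The median log2 fold change of the relatives was -0.66 at day 5 and -0.20 at 1 month. Scd4, a further desaturase gene, averaged 0.465 CPM in mutant and 1.59 CPM in Wt ears at day 5 (log2 fold change -1.75, edgeR adjusted p = 4.54e-05) and was lower at 1 month too (-1.50). Scd2, a desaturase gene known from brain, fell at day 5 (-0.70, 311 CPM in mutant and 507 CPM in Wt ears) and was not called at 1 month (0.18, 508 CPM in mutant and 448 CPM in Wt ears). The effect on Scd2 differed between day 5 and 1 month (0.89 on the log2 scale, edgeR adjusted p = 0.0174).

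Soat2, the paralog of Soat1 known from liver and gut, went the other way. It averaged 2.36 CPM in mutant and 0.685 CPM in Wt ears at day 5 (log2 fold change 1.77, edgeR adjusted p = 0.000179), and 1.43 CPM in mutant and 0.520 CPM in Wt ears at 1 month (1.44, edgeR adjusted p = 0.00108). Awat1, the other wax ester synthase gene, was not called at either time (log2 fold change -0.27 and -0.16), nor was Far1 (0.51 and 1.04). Among the elongases Elovl5 was lower at both times (-1.06 and -1.05) and Elovl6, which elongates palmitate, likewise (-0.92 and -1.31). Mogat1 and Cidec were also lower at both times, by log2 fold changes of -1.16 and -2.39 for Mogat1 and -0.89 and -1.71 for Cidec. The melanocortin 1 receptor gene Mc1r fell at day 5 (-2.38) and was not called at 1 month (0.53), and the difference of 2.91 between the effects passed the test (edgeR adjusted p = 0.000152).

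Of 22 enzymes and carriers of sebum lipid synthesis, all tested and some also among the relatives above, 10 were lower and 2 higher in mutant ears at day 5, and 8 were lower and 1 higher at 1 month. The list medians were -0.34 at day 5 and -0.16 at 1 month, against medians of -0.02 and 0.05 over all genes. Fa2h, the fatty acid 2-hydroxylase gene, averaged 337 CPM in mutant and 822.5 CPM in Wt ears at day 5 (log2 fold change -1.29, edgeR adjusted p = 0.000175), and 249.5 CPM in mutant and 587 CPM in Wt ears at 1 month (-1.24, edgeR adjusted p = 0.00018). Dgat2, which makes triglyceride, was lower at both times too (-0.72 and -0.86). Fabp5, a fatty acid-binding protein gene of keratinocytes, rose at both times, to 1131 CPM in mutant ears against 377 CPM in Wt ears at day 5 and to 3659 CPM in mutant ears against 411 CPM in Wt ears at 1 month, and its log2 fold change grew by 1.57 between them (edgeR adjusted p = 0.00478).

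Of 10 tested markers of sebaceous gland identity and of the upper follicle, 6 were lower and 2 higher in mutant ears at day 5, and 4 were lower and 2 higher at 1 month. Over all tested genes 20.2% were lower and 20.7% higher at day 5, and 21.5% lower and 25.5% higher at 1 month, so the higher counts lay near or below the background. The list medians were -0.50 and -0.19. Pparg, the nuclear receptor gene of sebocyte and adipocyte differentiation, was lower at day 5 (-0.96) and at 1 month (-0.85), and Lgr6, a marker of upper follicle stem cells, was lower as well (-1.11 and -1.75). Plet1, a surface protein gene of the junctional zone, rose at both times (1.59 and 1.89), and Muc1 rose at day 5 (1.44) and was not called at 1 month (0.22). Krt79, a keratin of the gland's duct named here after its values were seen, was not called at day 5 (-0.28) and rose at 1 month (0.83, edgeR adjusted p = 0.00501), with a difference of 1.11 between the effects (edgeR adjusted p = 0.0354). The summed level of the 9 sebaceous gland markers was 951 to 1591 CPM in mutant and 1515 to 2128 CPM in Wt ears at day 5. At 1 month it was 829 to 2060 CPM in mutant and 945 to 1873 CPM in Wt ears, where the groups overlapped widely. This sum mixes opposite changes. At 1 month Krt79 averaged 675.6 CPM in mutant and 379.5 CPM in Wt ears, and Fa2h 249.5 CPM in mutant and 587.3 CPM in Wt ears. Taken singly, 4 of the 9 markers were lower and 0 higher at day 5, and 4 were lower and 1 higher at 1 month.

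Of 11 tested receptors and hormone genes that act on the gland, 6 were lower and 1 higher in mutant ears at each time, against 20.2% lower and 20.7% higher over all tested genes at day 5 and 21.5% lower and 25.5% higher at 1 month. The list medians were -0.43 and -0.72. Mrap, which encodes an accessory protein of melanocortin receptors, was lower at day 5 (-0.84) and at 1 month (-2.17), with a difference of -1.33 between the effects (edgeR adjusted p = 0.0374). Ppara fell at both times (-0.63 and -1.40) and Fgfr2 did so too (-0.67 and -1.31). Ppard, named after its values were seen, was the gene that rose (0.81 and 1.23). Pomc, also named outside the rule, which encodes the precursor of the melanocortin ligands, did not pass the filter and averaged 0.152 CPM or less in each group.

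SREBP and LXR are transcription factors of lipid and sterol synthesis. Of 17 of their targets and related genes tested, 6 were lower and 1 higher at day 5, and 6 were lower and 5 higher at 1 month. The 5 higher at 1 month lay near the background of 25.5% over all tested genes, and the list medians were -0.22 and -0.01. Srebf1, which drives fatty acid synthesis, was lower at both times, at 169 CPM in mutant and 275 CPM in Wt ears at day 5 and 109 CPM in mutant and 217 CPM in Wt ears at 1 month. Mlxipl was lower too (-1.03 and -1.90), the gene of the carbohydrate-sensing factor ChREBP. Sqle, a cholesterol synthesis gene, was higher at 1 month (0.87) and not called at day 5 (0.31).

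**Figure D4:**
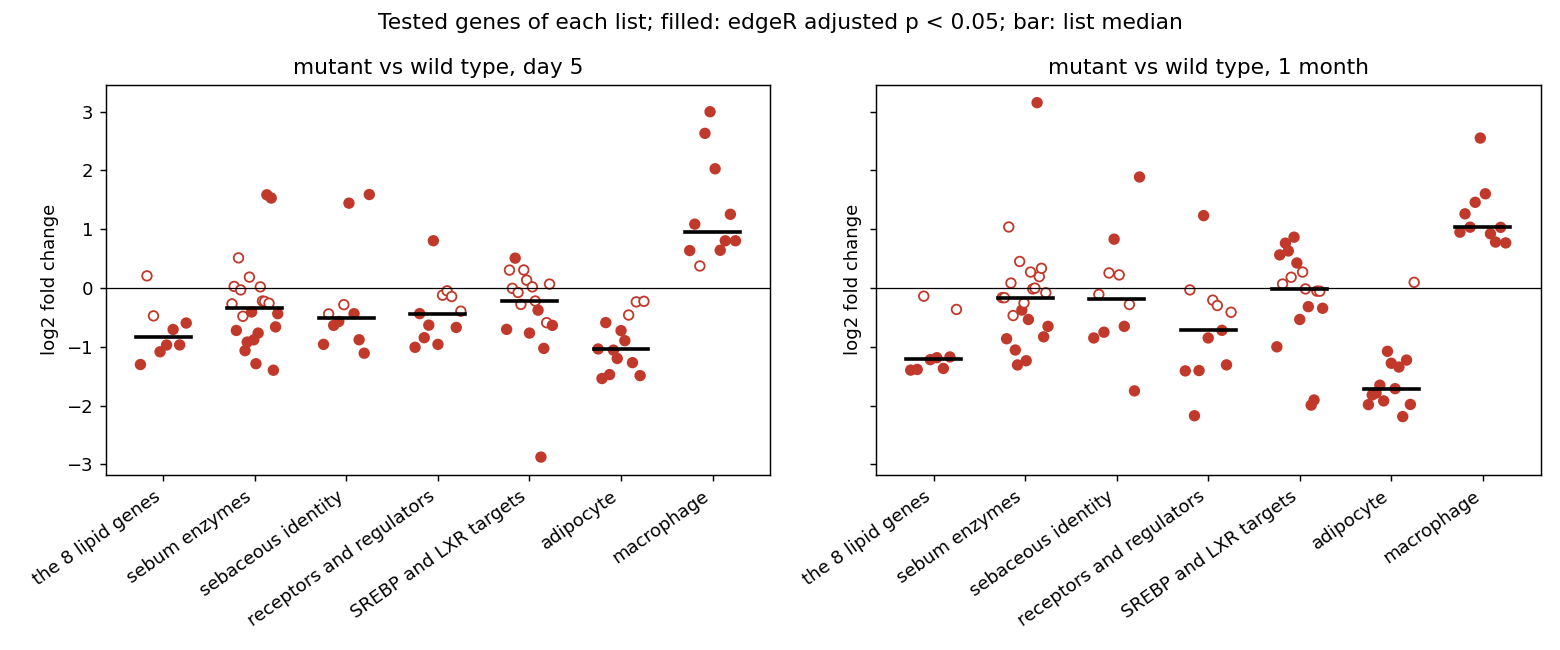
Log2 fold change of mutant against Wt ears for every tested gene of 7 lists at day 5 (left) and 1 month (right), with filled points for edgeR adjusted p < 0.05 and a bar at the list median. The 8 lipid genes have medians of -0.84 and -1.20, adipocyte genes -1.04 and -1.71, and macrophage genes 0.95 and 1.03; some genes belong to more than 1 list.

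Genes of other cells that use some of the 8 also moved. All 8 adipocyte markers (Adipoq, Plin1, Plin4, Lep, Cfd, Lpl, Lipe, Cidec) were lower in mutant ears at both times. Their summed level was 348 to 648 CPM in mutant and 756 to 1145 CPM in Wt ears at day 5, and 336 to 505 CPM in mutant and 901 to 1748 CPM in Wt ears at 1 month. In Wt ears 3 of the 8 markers rose at 1 month against day 5 and none fell, and Scd1 and Cidea were not called there. The part of adipocytes in the levels of Scd1, Cidea and Pparg was not tested. Of 13 genes on a wider adipocyte list 10 were lower at day 5 and 12 at 1 month, with none higher, and Retn (-1.27 and -2.19) and Plin1 (-1.54 and -1.82) were among those lower at both times.

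Brown fat is a known site of Cidea and Elovl3. Ucp1, its defining gene, was near 0 and averaged 0.0477 CPM in mutant and 0.149 CPM in Wt ears at day 5 and 0.00698 CPM in mutant and 0.0289 CPM in Wt ears at 1 month. Of 6 tested genes on a list for brown fat 3 were lower at day 5 and 5 at 1 month, among them Cox8b and Cpt1b at 1 month (-2.08 and -2.18), which muscle also expresses. Markers of skeletal muscle (Acta1, Ckm, Myh4) were lower in mutant ears too, 3 of 3 at each time, and of 2 tested cartilage markers 2 were lower at day 5 and 1 at 1 month. Of the macrophage markers 6 of 7 rose at day 5 and 7 of 7 at 1 month, with a summed level of 352 to 1016 CPM in mutant and 251 to 300.3 CPM in Wt ears at day 5 and of 489 to 874 CPM in mutant and 202 to 424 CPM in Wt ears at 1 month. Fcgr1 (3.00 and 2.55) and Itgam (2.63 and 1.46) rose the most on the log2 scale among the 4 named by rule, which also held Adgre1 (0.64 and 0.95) and Csf1r (not called at day 5, 1.04 at 1 month). The part of macrophages in the Soat1 and Soat2 levels was not tested. Keratinocyte markers rose in 2 of 4 at day 5 and in 3 of 4 at 1 month, where Krt10 fell (-0.57).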

How the data were processed

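Poly(A) RNA of whole ears was sequenced as single-end reads of at least 75 bases, per the labels' protocols. The authors deposited 1 table of RSEM expected counts for 51912 Ensembl genes in 24 libraries. The submitters' processing notes name RSEM 1.3.0, STAR 2.5.2, DESeq2 1.14.1 and GRCm38; their roles, the annotation release and strand use were not stated. Of the values 6.71% were not whole, and expected counts were rounded before testing.

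Genes passing filterByExpr (17287) were fitted with edgeR 4.0.16 in R 4.3.3 (TMM scaling, robust quasi-likelihood test, 1 coefficient per group over all 24 libraries). Log2 CPM used a prior count of 2. Symbols and positions came from GENCODE M21 (GRCm38), which held 51719 of the IDs. DESeq2 1.42.0 and limma 3.58.1 served as alternatives, and the fit was tested on simulated data. Among 60 pairs of libraries within groups none was a duplicate (smallest chi-square per degree of freedom 4.86).

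The 8 genes and all gene lists were chosen with earlier results of these data known; the ratios between the 8 and both settings on GC content were added after their levels had been seen. From each further list the text names up to 4 genes with the smallest adjusted p in any comparison, the paralogs needed to read one of the 8, and the 5 genes most like their mean. Of the genes this rule selects, 2 are not reported here.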

Additional observations from a re-analysis of the deposited data

Results flagged for a closer look

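Scd3 in replicate 6 of the mutant ears at 1 month stood at 20.04 CPM, far above the next of the 6 libraries, which was below the Wt range. The gap was 0.711 of the whole range of the group, above the Dixon limit at the 95% level. This was 1 of 32 gene and group combinations examined, and chance marks about 1 in 20. The library is among those low in Y-linked genes and with a GC correlation (r = 0.54), and the part of either in the Scd3 level was not tested. Without it the log2 fold change of Scd3 at 1 month was -1.92 (edgeR adjusted p = 0.00131), and with it -1.38 (edgeR adjusted p = 0.0188).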

How the results depend on the processing

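The 6 genes lower in mutant ears at day 5 and the 6 at 1 month numbered 6 in each of 13 alternative settings, and 5 to 6 and 6 to 7 when single libraries were left out. Of the 1176 single-gene outcomes 1121 kept direction and side of the threshold, 24 lost the call, 11 gained it and 20 turned direction; the cause was not tested. The change of the effect between the times, called in 0 genes, was called in 1 with limma voom, 2 without the 4 libraries low in Y-linked genes, 1 with the Y-linked level as covariate, and 0 to 1 with single libraries left out (1 without mutant replicate 6 of 1 month). The Wt time comparison called 3 genes and 7 with voom; single libraries left out gave 2 to 4. Far2 in that comparison lost its call with library totals only, no filter, only the libraries compared, the replicate block and without 3 libraries correlated with GC (edgeR adjusted p 0.0516 to 0.0742).

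Estimates near 0 turned direction. Scd3 at day 5 was -0.0127 with voom, -0.0861 with the replicate block and -0.3295 to 0.3939 with single libraries left out; Elovl3 at 1 month ran from -0.4041 to 0.0181. For the change between the times, voom gave 0.033 for Scd1, -0.0887 for Elovl3, 0.3966 for Mc5r and 0.3035 for Far2, Elovl3 was -0.1863 without the 4 libraries, and Far2 ran from -0.3619 to 0.0333. Elovl3 in Wt ears over time was -0.1036 with voom, -0.0309 with the replicate block, -0.0497 without the 4 libraries, -0.2662 with the Y-linked level, -0.0325 without the 3 GC libraries, -0.2126 with GC as covariate, and -0.0915 to 0.1482 with single libraries left out.

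Over all genes, higher and lower calls were 809 and 707 for the change between the times, against 4037 and 4179 with voom, 1697 and 2933 without the 4 libraries, 1788 and 1553 with the Y-linked level and 1462 and 1456 with GC as covariate. At day 5 they were 3579 and 3489, against 5688 and 6005 with voom and 3332 and 3766 with library totals only. With only the libraries compared they were 5093 and 4820. At 1 month they were 4416 and 3723, against 3110 and 2945 with only the libraries compared. With library totals only they were 3828 and 4257 and without the 4 libraries 4635 and 4906, so that lower calls then outnumbered higher ones. In the Wt time comparison they were 1086 and 486, against 3666 and 4553 with voom, 1864 and 574 with DESeq2, 2125 and 1043 without the 4 libraries, 731 and 288 with the replicate block and 1077 and 1160 with GC as covariate. Single libraries left out gave 651 and 286 (Wt replicate 5 of 1 month) to 2001 and 1025 (Wt replicate 1 of 1 month). Deviations from group means showed no general pairing by replicate number: 36 same-numbered pairs correlated from -0.73 to 0.39, with 4 best with their own number. Such correlations cannot exclude that some samples were paired. Pairs of the 8 genes with a changed ratio numbered 7 and 7 with a prior count of 0.5, and 6 to 7 at day 5 and 5 to 8 at 1 month with single libraries left out.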
